A study of Mus musculus with 2 samples.

Results

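The genes described here are those of the transforming growth factor beta (TGF-beta), bone morphogenetic protein (BMP) and activin pathway on a mouse whole-genome array. They were taken by name: every non-control spot whose gene name began with a symbol of a Bmp, Tgfb1 to Tgfb3, Gdf, Inha, Inhb, Bmpr, Tgfbr, Acvr, Bmper or Smad gene was included. This gave 53 genes with 80 probes and 98 spots, of 34741 genes on the array. They divide into 28 ligands, 12 receptors and 8 Smad transducers, and the name rule also caught 5 genes of other kinds (Bmp1, Bmper, Bmp2k, Tgfbrap1 and Tgfb1i1). The RNA came from the hippocampus of ICR mice, an outbred strain, 8 weeks after a sham operation or after 5/6Nx, the short form of 5/6 nephrectomy, which removes most kidney tissue and is used as a model of chronic kidney disease. Each group is 1 Cy3-labelled array of 60-base probes, and both arrays carried RNA of the same tissue and strain. The labels give neither the number nor the age of the animals behind an array. With 1 array per group no test was possible, so each difference below describes this pair of arrays, and a statement that a gene was higher or lower refers to its measured signal only.

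TGF-beta family ligands are secreted dimers that bring together a type II and a type I serine/threonine kinase receptor. TGF-beta and activin receptors phosphorylate Smad2 and Smad3, BMP receptors phosphorylate Smad1, Smad5 and Smad9, and both classes of Smad enter the nucleus with Smad4, whereas Smad6 and Smad7 inhibit the pathway. In the hippocampus the family is known for roles in neural stem cells of the dentate gyrus, in synaptic plasticity and in the response of glia to injury.

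Each difference is the log2 signal in 5/6Nx less that in sham, with both first expressed relative to the 75th percentile of their array, a signal of 1452 in sham and 1263 in 5/6Nx. Signals in the text are the processed, unscaled intensities, so the scaled difference lies 0.20 above the log2 ratio of the printed signals. Of all non-control spots, 72.7% in sham and 72.5% in 5/6Nx were well above background, none was saturated, and 25917 genes were measured on both arrays. At least 2-fold higher in 5/6Nx were 4.89% of these genes and at least 2-fold lower 3.29%, and the median difference of all genes was 0.05. Of the 2-fold differences 59.8% were higher, against 49.2% after quantile normalization, 42.3% after scaling to the median, 49.4% in the authors' deposited table, 47.9% after the trend with signal was removed and 36.3% after scaling to spike-in controls. The 2-fold line marks size alone. All 12 markers of hippocampal excitatory neurons were measured on both arrays, with a median difference of 0.22 and 2 of them at least 2-fold lower.

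The pathway genes lay on both sides of the median of all genes. Their lower and upper quartiles were -0.45 and 0.21, against -0.23 and 0.35 for all genes. Of the 53 genes, 49 were measured on both arrays, and Bmp15, Gdf2, Gdf6 and Inhbc were not above background on either. Only 1 of the 49 was at least 2-fold higher in 5/6Nx, Bmp1, which is a protease and no ligand (2.04% of the 49, against 4.89% of all genes and 4.18% of those with a RefSeq symbol). Lower by at least 2-fold were 3 of the 49, the ligands Bmp5 and Inhba and the receptor Acvr1c (6.12%, against 3.29% of all genes and 4.02% of those with a symbol). At the lower threshold of 1.5-fold, 3 genes were higher (6.12%, against 13.7% of all genes and 11.2% of those with a symbol) and 9 were lower (18.4%, against 8.92% and 10.6%). No pathway gene reached 3-fold, which 1.49% of all genes did upward and 0.945% downward (1.4% and 1.16% of those with a symbol), although Bmp5 passed it downward under 5 of the 9 other ways of processing. The median over the 49 genes was -0.05, and 32 of them (65.3%) lay below the median of all genes, 0.05. That median depended on the genes compared: it was 0.004 over genes with a RefSeq symbol and -0.02 over genes above the median signal. Under the 9 other ways of processing the values, 27 to 32 pathway genes lay below the median of all genes. Scaling to the median or to spike-ins shifts every gene alike, so the count of 32 could not change there. It was 28 under quantile normalization and in the authors' deposited table, which gives near-equal values. It was 27 after the trend with signal was removed, 31 with normexp background correction and 30 with the mean over probes.

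**Figure D1:**
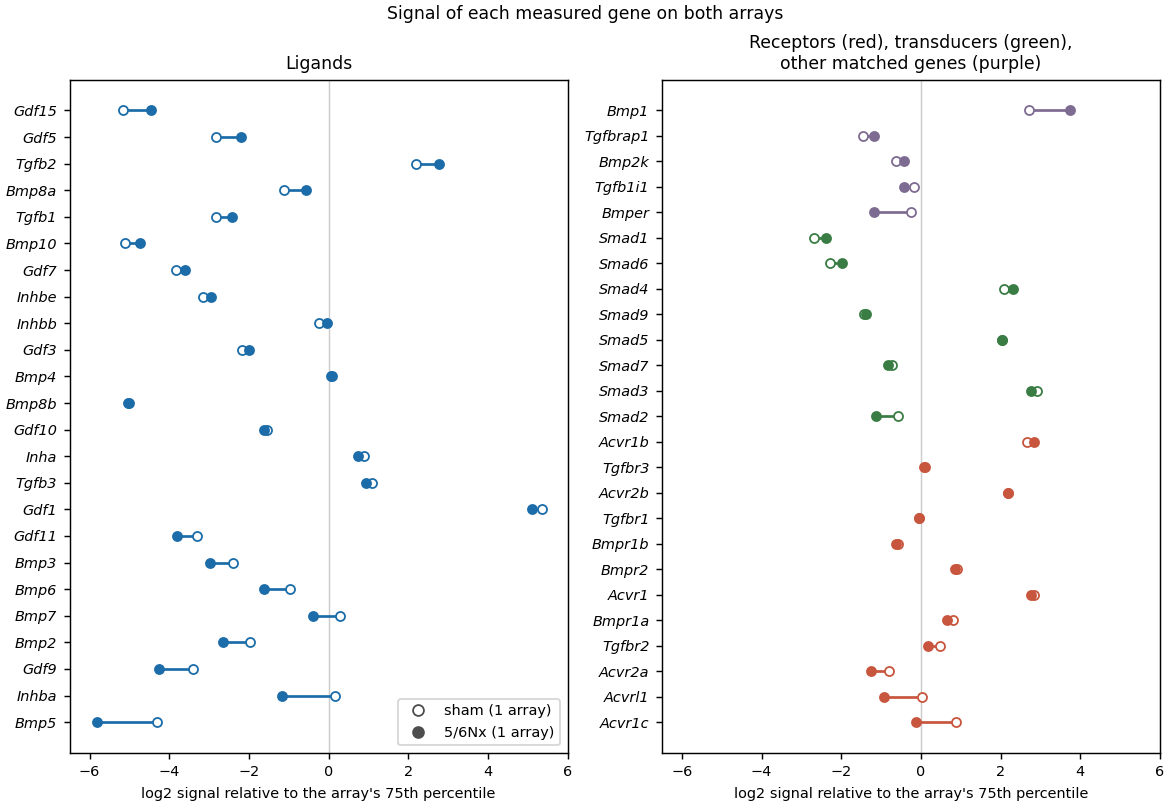
Log2 signal of each measured gene relative to the 75th percentile of its array, in sham (open circles) and 5/6Nx (filled circles), 1 array each, with ligands at left and receptors, transducers and the other matched genes at right. Long bars join the circles of Bmp5, Inhba, Acvr1c and Bmp1, while most pairs of circles touch; positions of different genes are not comparable, since each probe has its own brightness.

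The role groups differed mainly in their spread. The 24 measured ligands had a median difference of -0.03, and their middle range (lower to upper quartile) ran from -0.59 to 0.25, with 12 above 0 and 12 below. The 12 receptors had a median of -0.06 and a middle range of -0.35 to -0.01, with 9 of them below 0. The 8 transducers had a median of 0.02 and a middle range of -0.11 to 0.24, and none reached 2-fold. Over all genes the middle range was -0.23 to 0.35. The ligands thus varied most, from -1.51 to 0.72, and the middle ranges of receptors and Smads were narrower and about equally wide. Both ends of the ligand range are dim genes, Bmp5 and Gdf15, which gave -0.53 and 0.38 with normexp background correction. The ligands then ran from -1.25 (Inhba) to 0.62 (Tgfb2). Even the dimmest receptor, Acvr2a, read 832 in sham and 528 in 5/6Nx. The groups thus differ in brightness and size, and the spread cannot be assigned to the role. Across the other ways of processing, the median ran from -0.25 to 0.10 for ligands, from -0.27 to -0.05 for receptors and from -0.19 to 0.06 for transducers, so the sign of the ligand and transducer medians was not fixed.

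The probes of the genes at or near a 2-fold lower signal (Inhba, Bmp5, Acvr1c, Acvrl1 and Bmper), and of Tgfb2, whose probes gave equal values, are shown by the first 30 of their 60 bases, on mm9, the build of the scanner files, because which stretch of a transcript a probe reads decides what its signal stands for. Each is given on the strand of its transcript, 5′ to 3′. Whether they lie in coding exons or untranslated regions was not determined here.
Inhba, chr13:16118634-16118663, plus strand: tcaacatttgctgtaagaaacagttctttg
Bmp5, chr9:75746444-75746473, plus strand: ataaaaagcaggggaatggggaatttccta
Acvr1c, first probe, chr2:58119918-58119947, minus strand: caaagacaatgaattaagcactcgttgcac
Acvr1c, second probe, chr2:58124274-58124303, minus strand: cataattgtatgaaaatagtaacctgatcg
Acvrl1, chr15:100974010-100974039, plus strand: tgtgcctgctcagcttggctcccagcccat
Bmper, chr9:23289301-23289330, plus strand: gctaggggccatctacgttttgtcactatc
Tgfb2, first probe, chr1:188449363-188449392, minus strand: attggaaatacgcccaagatcgaacagctt
Tgfb2, second probe, chr1:188447564-188447593, minus strand: tcatccattatttccctgatttcattgaaa

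Among the ligands, Inhba and Bmp5 were the only genes at least 2-fold apart. Inhba encodes the activin beta A subunit, whose dimer is activin A, a factor that neurons produce on synaptic activity. Its signal was 1631 in sham and 561 in 5/6Nx, a difference of -1.34, or 2.53-fold lower, and only 1.56% of measured genes had a lower value. Under the 9 other ways of processing it stayed between -1.55 and -1.25. The other activin and inhibin subunits did not share this difference. Inha, the alpha subunit that turns activin dimers into inhibin, read 2676 in sham and 2115 in 5/6Nx (-0.14). Inhbb, the beta B subunit, read 1229 and 1224 (0.19, and -0.02 at its lowest, under spike-in scaling), and Inhbe, the beta E subunit, read 162 and 164 (0.22).

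Of the 9 measured BMP ligands, 5 were lower in 5/6Nx and 4 were level or higher. Bmp5 had the lowest difference of all 49 genes, with a signal of 73.2 in sham and 22.4 in 5/6Nx (-1.51). Its 5/6Nx signal was close to background, and with normexp background correction in place of the scanner's own the difference was -0.53. Bmp7 had a signal of 1769 in sham and 965 in 5/6Nx (-0.67). Bmp6 gave 744 and 408 (-0.66). Bmp2, from the Bmp2 and Bmp4 subgroup that induces bone and patterns the embryo, gave 367 and 200.1 (-0.67). Bmp3, which opposes other BMPs, gave 273 and 160 (-0.57). These 5 ligands were lower in 5/6Nx under every way of processing tried, with values between -0.78 and -0.37 for the least lowered of them. They were picked as the BMP ligands clearly below 0 on these same arrays, so the kept sign is no separate support. Over the 49 genes, only differences of at most 0.31 in size changed sign with the processing. Bmp4, in contrast, read 1524 in sham and 1340 in 5/6Nx, which after scaling is a difference of 0.02 (-0.20 under spike-in scaling). Bmp8b was at 44.3 and 38.9 (0.01, and -0.20 under spike-in scaling). Bmp10, a ligand best known from the heart, was at 42.4 and 47.3 (0.36), and Bmp8a at 671 and 849 (0.54). The median over the 9 measured BMP ligands was -0.57.

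Leptomeningeal fibroblasts, the cells of the membranes over the brain, are a known source of several BMPs, and their markers differed in the same direction. All 13 measured markers of the 14 listed were lower in 5/6Nx, 11 of them at least 2-fold, with a median of -2.18, and their summed level was 68.3 times the 75th percentile of the array in sham and 21.0 times in 5/6Nx. Slc47a1, the remaining one, was above background in sham only. Their part in the difference of the BMP ligands was not tested. In whole tissue, fewer cells of a type and less RNA per cell cannot be told apart.

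**Figure D2:**
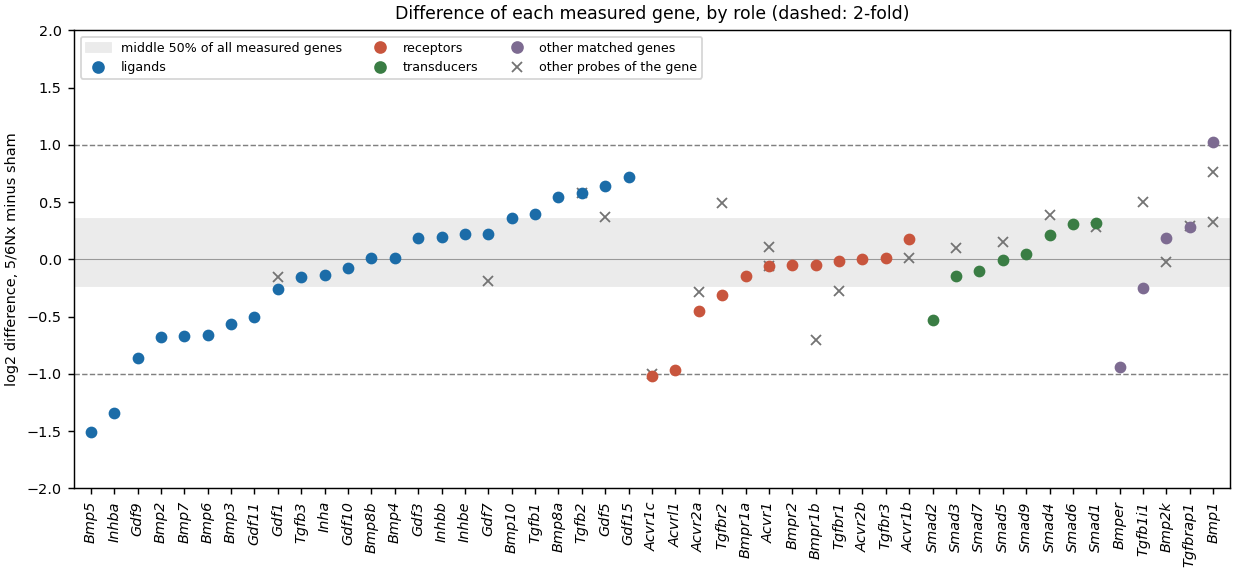
Log2 difference (5/6Nx minus sham) of each measured gene, ordered within its role, as circles, with other measured probes of the same gene as crosses and the middle 50% of all measured genes as a grey band. Bmp5 (-1.51), Inhba (-1.34) and Acvr1c (-1.02) lie below the lower 2-fold line and Bmp1 (1.02) above the upper one, and the Smads stay within or near the band except Smad2 (-0.53).

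Of the TGF-beta ligands proper, Tgfb2 and Tgfb1 were higher in 5/6Nx and Tgfb3 was lower, none by 2-fold. Tgfb2, a ligand made by neurons and glia, had a signal of 6593 in sham and 8569 in 5/6Nx, a difference of 0.58. This is just under 1.5-fold, and 4 of the 9 other ways of processing put it above (up to 0.63). Its second probe also gave 0.58, so both probes printed above read the same difference at sites 1.80 kb apart. Tgfb1, the isoform linked to microglia and injury, was read by 10 replicate spots per array, with signals of 206 ± 13.4 (SD over spots) in sham and 236 ± 11.5 in 5/6Nx and a difference of 0.40. Its spots ranged from 188 to 230.4 in sham and from 210 to 252 in 5/6Nx, so the unscaled signals overlapped. Relative to the 75th percentile of the array they ranged from 0.130 to 0.159 in sham and from 0.166 to 0.1996 in 5/6Nx, which did not overlap. Tgfb3, also on 10 spots per array, had 3090 ± 97.6 in sham and 2416 ± 78.7 in 5/6Nx (-0.15), and its scaled spots did not overlap either (2.05 to 2.28 in sham and 1.79 to 1.98 in 5/6Nx). These spots are technical repeats within 1 hybridisation and say nothing about the spread between animals.

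The growth and differentiation factors (Gdf genes) lay on both sides of 0. Gdf15, a cytokine induced by cellular stress and a marker of kidney disease in blood, was dim, at 40.3 in sham and 57.8 in 5/6Nx (0.72, and 0.38 with normexp correction). Gdf5, known from joint and tendon development, read 205 and 277 (0.64), and its second probe gave 0.37 in the same direction. Gdf9, best known as an oocyte factor, read 138 and 66.0 (-0.86). It was at least 2-fold lower under 5 of the 9 other ways of processing, with values down to -1.08, and at -0.51 with normexp correction. Gdf11, a close relative of myostatin, was lower at 148 and 90.9 (-0.50). Gdf1 read 59476 and 43291 (-0.26), but the gene shares its transcript with Cers1, a ceramide synthase, so this signal cannot be assigned to Gdf1 alone. Gdf3 (0.19, and -0.03 at its lowest), Gdf7 (0.22, with -0.19 on a second probe) and Gdf10 (-0.07, and 0.01 at its highest over the ways of processing) were within the middle range of all genes.

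Among the receptors, only 2 of the 12 differed by more than 1.5-fold, and both are type I receptors. Acvr1c, or ALK7, which serves Nodal, activins and some Gdf ligands, had a signal of 2692 in sham and 1158 in 5/6Nx (-1.02). Its second probe, 4.36 kb away, gave 2635 and 1144 (-1.002), so both read the same 2-fold difference. The gene sits at the threshold, and its value ranged from -1.23 to -0.93 with the processing. Acvrl1, or ALK1, the BMP receptor of endothelial cells, was just inside the threshold, at 1484 and 662 (-0.96, range -1.18 to -0.92). Endothelial markers, 14 listed and all measured, had a median of 0.09 (-0.13 under spike-in scaling). They ran from -1.04 to 0.55, and 1 of them was at least 2-fold lower. Their summed level was 53.5 times the 75th percentile in sham and 55.1 times in 5/6Nx. Whether these cells bear on the Acvrl1 value was not tested.

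The other type I receptors were close to 0. Acvr1 (ALK2), a BMP receptor, read 10323 in sham and 8608 in 5/6Nx (-0.06), and Acvr1b (ALK4), the main activin type I receptor, read 9238 and 9110 (0.18, and -0.03 under spike-in scaling). Tgfbr1 (ALK5), the type I receptor for TGF-beta, read 1408 and 1214 (-0.01). A dimmer Tgfbr1 probe was above background in sham only, at least 2.06-fold brighter there. Bmpr1a read 2521 and 1987 (-0.14). Bmpr1b read 972 and 818 (-0.05), while its second, dimmer probe read 255 and 136 (-0.71), so its 2 probes disagreed in size.

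The type II receptors and the co-receptor showed no 2-fold difference. Acvr2a, a type II receptor for activins, had 832 in sham and 528 in 5/6Nx (-0.45), and its second probe gave -0.29. Acvr2b had 6644 and 5790 (0.00, and -0.21 under spike-in scaling). Bmpr2, the type II receptor for BMPs, had 2699 and 2269 (-0.05). Tgfbr2, the type II receptor for TGF-beta, gave -0.31 on the brighter probe (2019 and 1417) and 0.49 on the dimmer (108 and 132), so its direction depended on the probe, and the mean over both was 0.09. Tgfbr3, or betaglycan, the co-receptor that presents Tgfb2 and inhibin, had 1532 and 1347 (0.02, and -0.20 under spike-in scaling).

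The probes whose readings disagreed are shown next, as their first 30 bases on mm9.
Bmpr1b, brighter probe, chr3:141503404-141503433, minus strand: atcatggctttctgaggaggagaaactgtt
Bmpr1b, dimmer probe, chr3:141500724-141500753, minus strand: atttatggaagcatgtacattgtgaactcc
Tgfbr2, brighter probe, chr9:115997185-115997214, minus strand: tctagcggggaatttacagaatgctggtcc
Tgfbr2, dimmer probe, chr9:115999526-115999555, minus strand: gggaggagctgctcccaggagaagattcca
Across the array, 7995 genes had several measured probes, whose differences had a median SD of 0.20 within a gene, and in 64.8% of them all probes pointed in 1 direction. Of the 19 pathway genes with several measured probes, 12 did (63.2%), with a median SD of 0.12. Replicate spots of a probe had a median log2 SD of 0.06 in sham and 0.05 in 5/6Nx. The SD over probes was the larger number, but it is taken over differences between the arrays, whereas the spot values are SDs of signals on 1 array. Probes of a gene can also read different transcripts, so their disagreement is not error alone.

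Among the transducers, Smad2 had the largest difference, with 965 in sham and 581 in 5/6Nx (-0.53, range -0.75 to -0.49). Smad3, its partner in TGF-beta and activin signalling, read 10859 and 8547 (-0.14), and its second probe gave 0.10. The BMP Smads did not follow Smad2. Smad1 read 224 and 244 (0.32), and a dimmer Smad1 probe was above background in 5/6Nx only, at least 1.39-fold brighter there. Smad5 read 5987 and 5195 (-0.00) and Smad9 541 and 487 (0.05), and both changed sign with the processing. Smad4, the shared partner, read 6200.5 and 6255 (0.21, and -0.00 under spike-in scaling). Of the inhibitory Smads, which are also transcriptional targets of the pathway, Smad6 read 298 and 321 (0.31) and Smad7 read 880.4 and 715 (-0.10).

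**Figure D3:**
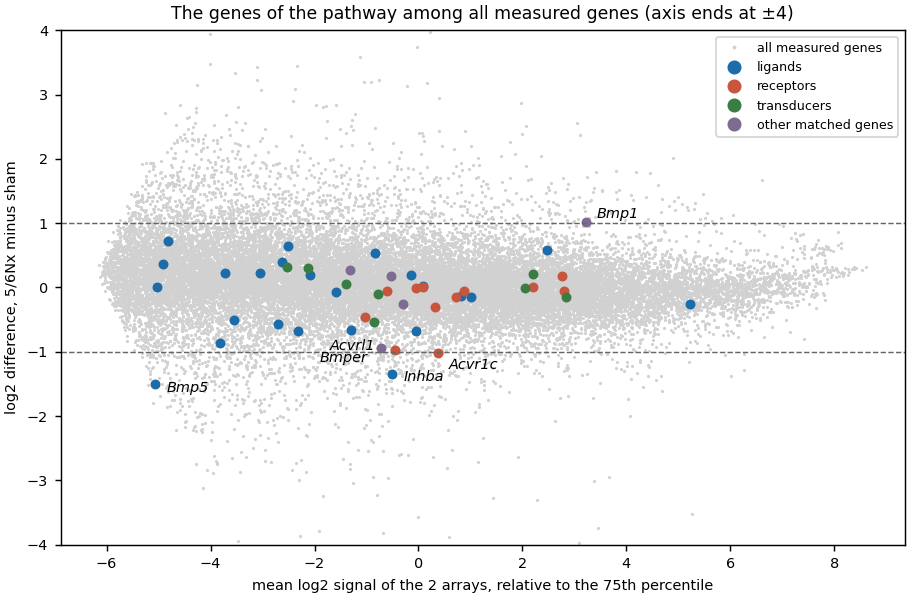
Log2 difference (5/6Nx minus sham) against mean log2 signal for all genes measured on both arrays (grey) and the pathway genes by role (coloured); 19 genes lie beyond the axis. Bmp5 lies among dim genes, where the grey cloud is wide, whereas Inhba, Acvr1c, Acvrl1, Bmper and Bmp1 lie where it is narrower.

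Of the 5 genes caught by name alone, Bmp1 and Bmper lay on opposite sides. Bmp1 is a metalloproteinase that trims procollagens and cleaves the BMP antagonist chordin, and its brightest probe read 9534 in sham and 16877 in 5/6Nx (1.02). The other Bmp1 probes gave 542 and 799 (0.76) and 1742 and 1896 (0.32). All 3 were higher in 5/6Nx, by an amount that depended on the probe, and their mean was 0.70. On the minus strand of chromosome 14 the brightest probe lies furthest toward the 3′ side.
Bmp1, difference 1.02, chr14:70874400-70874429, minus strand: aggcccactggctcatcagccacaccaggg
Bmp1, difference 0.76, chr14:70886445-70886474, minus strand: tgtgacatttcctgttgtgaagtaaaagag
Bmp1, difference 0.32, chr14:70890385-70890414, minus strand: ggcccccacccagtaccgtatctccctgca
Bmper, a secreted protein that binds BMPs and modulates them around vessels, read 1221 in sham and 554 in 5/6Nx (-0.94, range -1.16 to -0.84). Tgfbrap1, an adaptor that binds TGF-beta receptors, read 532 and 561 (0.28), and its second probe gave 0.29. Bmp2k, a kinase first found as a BMP2-induced gene, read 946 and 936 (0.19, and -0.03 under spike-in scaling). Tgfb1i1 (Hic-5), a focal adhesion protein, gave -0.25 on the brighter probe (1286 and 938) and 0.50 on the other (84.4 and 104), so its direction was not settled.

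**Figure D4:**
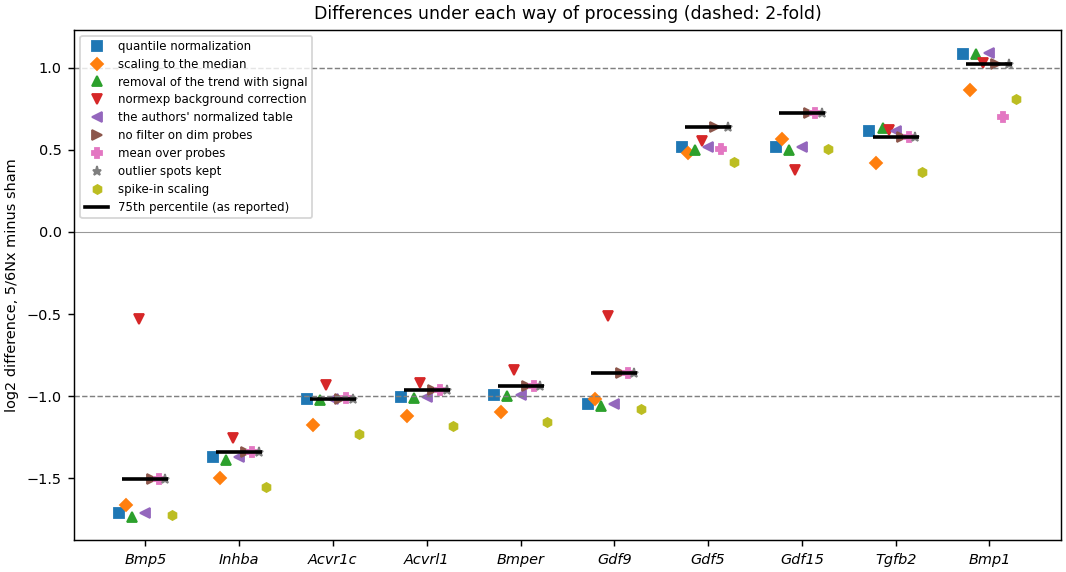
Log2 difference (5/6Nx minus sham) of 10 pathway genes as reported (black bars) and under 9 other ways of processing (symbols). Inhba stays below the lower 2-fold line under all of them, Bmp5, Acvr1c, Acvrl1, Bmper, Gdf9 and Bmp1 lie on either side of a 2-fold line depending on the processing, and Bmp5 (-0.53) and Gdf9 (-0.51) are nearest 0 with normexp background correction.

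Outside the name rule, the secreted antagonists and modulators of the pathway held genes at least 2-fold apart in both directions. Of 22 listed genes 19 were measured, 4 were at least 2-fold higher in 5/6Nx and 2 at least 2-fold lower (4.89% and 3.29% of all genes), with a median of 0.14 (-0.08 under spike-in scaling). Bambi, Cer1 and Sost were not above background. Chrd, or chordin, which binds BMPs and is cut by Bmp1, read 552 in sham and 2068 in 5/6Nx (2.11), but its second probe gave 0.40 and the mean over both was 1.25. Chrdl2, a chordin-like BMP binder, read 143 and 433 (1.798), and Kcp, a chordin-like protein that modulates BMP and TGF-beta ligands, read 319 and 725 (1.38). Sostdc1, a BMP and Wnt antagonist, read 325 and 908 (1.68). Sostdc1 is also a marker of the choroid plexus epithelium, which makes cerebrospinal fluid. Of the 16 listed markers of that epithelium 15 were measured, 13 were at least 2-fold higher, the median was 2.48, and their summed level was 19.4 times the 75th percentile in sham and 231 times in 5/6Nx, with Cldn2 above background in 5/6Nx only. Their part in the result was not tested. Lower were Vwc2l, at 131 and 42.9 (-1.41, and -0.69 with normexp correction), and Chrdl1, at 77.1 and 33.0 (-1.03), whose second probe gave 0.63. Noggin (Nog), the classic BMP antagonist, read 715 and 622 (0.00), and the activin binder follistatin (Fst) read 457 and 508 (0.35).

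The genes that store and release latent TGF-beta had a median of 0.36 over 14 measured of 15. Of these, 1 was at least 2-fold higher and 1 lower (4.89% and 3.29% of all genes). Ltbp2, a latent TGF-beta binding protein of elastic fibres, read 84.7 in sham and 173 in 5/6Nx (1.23, and 0.87 at its lowest over the ways of processing). Dcn, or decorin, a proteoglycan that binds TGF-beta, read 48789 and 10662 (-1.99), and it is also on the list of leptomeningeal markers given above. Among 8 measured of 12 further family ligands and receptors none reached 2-fold (median 0.24), and the largest differences were Amhr2, the receptor of anti-Müllerian hormone (-0.79), and Rgmb, a BMP co-receptor (0.67). Mstn was above background in sham only, at least 1.33-fold brighter there.

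Inside the cell, none of the 18 regulators of Smad and receptor activity reached 2-fold, and their median was 0.05 (-0.16 under spike-in scaling). The largest differences were those of the Smad corepressors Tgif1 (346 in sham and 507 in 5/6Nx, 0.75) and Tgif2 (65.1 and 93.4, 0.72). Of 25 transcriptional targets 24 were measured, 3 were at least 2-fold higher and none lower (4.89% and 3.29% of all genes), with a median of -0.01. Cdkn1a, the cell cycle inhibitor p21, read 1244 and 4031 (1.896), and Ltbp2, described above, is also among them. Other targets were lower. Ccn2 (connective tissue growth factor) read 4116 and 1982 (-0.85) and Klf10 (TGF-beta inducible early gene) read 2390 and 1258 (-0.73). The BMP target genes Id1 to Id4, inhibitors of neuronal differentiation factors, gave 0.47, -0.61, -0.16 and 0.24. With 12 above 0 and 12 below, the listed targets shared no direction, although the 3 at least 2-fold apart were all higher. Many of the targets also answer to other pathways.

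Markers of other cells give the setting in which these values stand. Of 12 listed blood cell genes 9 were measured, all lower in 5/6Nx and 8 of them at least 2-fold, with a median of -3.73 and a summed level of 211 times the 75th percentile in sham and 17.1 times in 5/6Nx. Markers of GABAergic interneurons, 10 of 10 measured, had a median of -0.60, with 9 below 0, 1 at least 2-fold lower and a summed level of 317 times in sham and 209 times in 5/6Nx. The medians were -0.43 for microglia and macrophages (3 of 11 at least 2-fold lower), -0.36 for the oligodendrocyte lineage (1 of 9 at least 2-fold higher and 2 lower), 0.03 for astrocytes (1 of 11 higher) and 0.05 for mural cells (1 of 10 higher). Their part in the differences of the pathway genes was not tested.

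**Figure D5:**
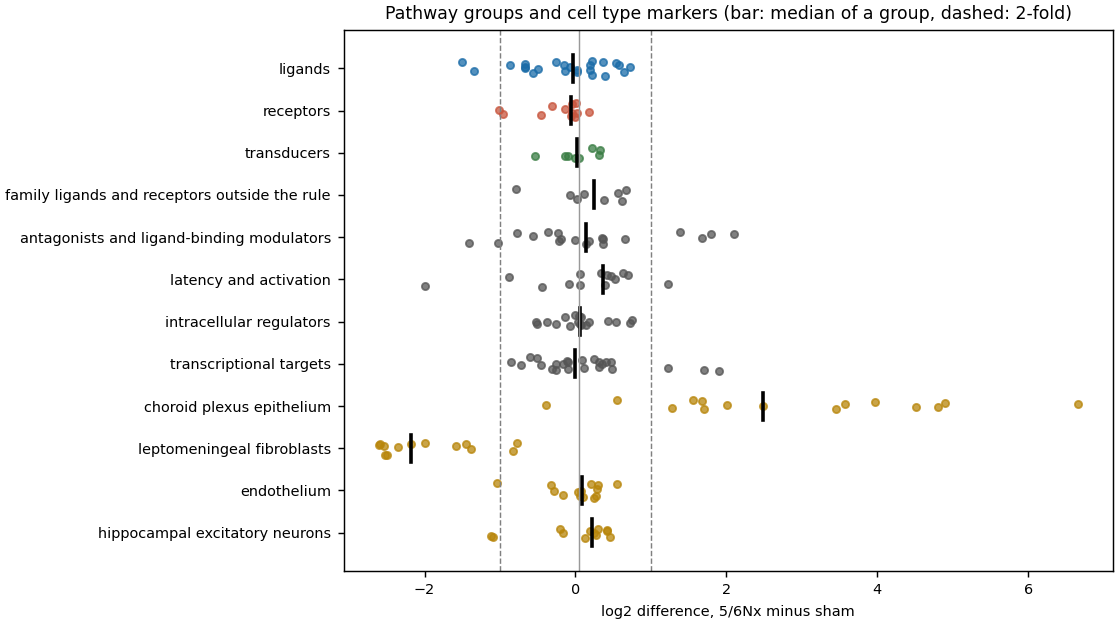
Log2 difference (5/6Nx minus sham) of each measured gene, as points spread vertically for legibility, in the 3 role groups, 5 lists of further pathway genes (Smad6 and Smad7 recur among the targets) and 4 lists of cell type markers; black bars are group medians, the solid grey line the median of all genes. The role groups and pathway lists have medians between -0.06 and 0.36, whereas choroid plexus markers (2.48) and leptomeningeal markers (-2.18) lie far to either side.

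Upstream sequences were read for the 3 genes that were at least 2-fold lower, from RefSeq on GRCm38.p6, a later build than that of the probes. Each line gives the 250 bases before the annotated start, 5′ to 3′ on the gene's strand. Capitals mark TATAAA in Inhba, which has the letters of a TATA box, and GTCTG in Bmp5, the reverse complement of the Smad-binding CAGAC. The TATAAA begins 91 bases before the annotated start, and whether it serves as a TATA box was not tested.
Inhba, chr13:16011601-16011850, plus strand: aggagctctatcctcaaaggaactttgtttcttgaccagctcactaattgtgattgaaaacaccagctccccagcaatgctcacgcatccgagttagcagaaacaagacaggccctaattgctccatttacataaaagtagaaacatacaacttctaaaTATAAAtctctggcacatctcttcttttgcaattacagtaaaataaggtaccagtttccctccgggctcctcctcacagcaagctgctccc
Bmp5, chr9:75775115-75775364, plus strand: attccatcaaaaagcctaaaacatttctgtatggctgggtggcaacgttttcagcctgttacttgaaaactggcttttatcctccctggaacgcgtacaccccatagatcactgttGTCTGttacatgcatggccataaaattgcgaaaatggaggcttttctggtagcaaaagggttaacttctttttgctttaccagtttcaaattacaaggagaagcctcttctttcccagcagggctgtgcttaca
Acvr1c, chr2:58357759-58358008, minus strand: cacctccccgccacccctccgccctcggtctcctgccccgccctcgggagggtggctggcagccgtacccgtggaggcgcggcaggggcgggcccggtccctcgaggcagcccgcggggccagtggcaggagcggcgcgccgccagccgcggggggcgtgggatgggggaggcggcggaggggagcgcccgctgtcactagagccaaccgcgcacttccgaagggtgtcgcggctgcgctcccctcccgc
RefSeq lists another start of Acvr1c, further downstream, not shown. The stretches differ in composition, with GC at 43.2% before Inhba, 42.8% before Bmp5 and 79.6% before Acvr1c. CAGAC or its reverse complement was found in 49.6% of all 32851 promoters of 300 bases (250 before to 50 after the start) and in 21 of the 47 promoters that matched 38 of the 53 genes, so its presence sets no gene apart. TATAAA, on either strand, was in 13.6% of all promoters and in 6 of the 47. The Smad-binding palindrome GTCTAGAC was rare, in 0.213% of all promoters, and its only match among the 47 was in Smad6, where it begins 4 bases before the start and runs across it, marked in capitals in the following 30 bases. The palindrome reads the same on both strands and holds no CAGAC.
Smad6, chr9:64022045-64022074, minus strand: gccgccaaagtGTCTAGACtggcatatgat
GGCGCC, a GC-rich motif bound by Smads and a palindrome as well, was in 11 of the 47 (11.9% of all promoters), and TGACGTCA, the cyclic AMP response element, was in none (1.79% of all). A match describes letters only and is not evidence of binding.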

How the data were processed

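Total RNA of hippocampus, 1 sample from sham and 1 from 5/6Nx mice, was hybridised with Cy3 on 1-colour Agilent arrays. The scanner output deposited by the authors gives a linear intensity for every spot. Feature Extraction 10.7.1.1 was used per the file headers, whereas the submitters' processing notes name 9.5.1.1. The intensity used is background-subtracted and not normalized between arrays. The deposited series table, also linear intensity by the authors, has sorted values equal within 0.0323% in both columns, as quantile normalization gives, and served as an alternative. Its columns have a median of 124, and its direction and scale follow the scanner values (r = 1.000 with the same array over 55674 probes). Every value column was mapped to a sample.

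From the scanner output, outlier spots were left out, log2 intensity was taken relative to the 75th percentile of the array, and spots of a probe were averaged. A gene was represented by its brightest probe above background, and was measured if both arrays had that probe well above background. For a probe above background on 1 array, the "at least" fold compares the bright value with the dim one, or with the lowest signal well above background on the dim array where that is higher. Probes kept their file names, and 70 of the 80 had an accession with the same RefSeq symbol (GRCm38.p6, used for names only). Values in full were given for genes at least 2-fold apart, bounds, the 2 highest, the 2 lowest and the brightest of each role, and, of each list outside the rule, for those at least 2-fold apart or the 2 largest. A gene of the target list that this rule takes is not reported here. Other members and targets are named for completeness, after their values were seen. The genes, lists, rules and alternatives were chosen with earlier results of these data known. Tools were Python 3.11.15, numpy 2.4.6, pandas 2.3.3, statsmodels 0.14.6, matplotlib 3.10.9, R 4.3.3 and limma 3.58.1 (normexp with an offset of 50, quantile). The calculation was tested on simulated data. The number of arrays limits the precision.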

Additional observations from a re-analysis of the deposited data

How the results depend on the processing

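No paired analysis was possible because sham and 5/6Nx are 1 array each, and for the same reason no array could be left out. The 3 genes at least 2-fold lower became 5 under quantile normalization, 5 once the trend with signal was removed (lowess, span 0.3) and 5 in the authors' deposited table, 6 after scaling to the median, 6 under spike-in scaling and 1 with normexp background correction, where Inhba remained. At the 2-fold threshold Inhba, Bmp5 and Acvr1c were all lower under every way of processing tried except normexp. The 1 gene at least 2-fold higher, Bmp1, became 0 after scaling to the median, 0 with the mean over probes and 0 under spike-in scaling. At 1.5-fold 3 genes were higher and 9 lower, and at 3-fold 0 and 0. The 1.5-fold counts became 1 higher and 13 lower under scaling to the median or to spike-ins, 2 and 12 under quantile normalization, trend removal or the authors' deposited table, and 2 and 5 with normexp. The shares of all genes moved too, so a changed count does not by itself set the pathway genes apart. At least 2-fold lower were 3.29% of all genes as reported, 4.74% after scaling to the median, 5.4% under spike-in scaling and 1.92% with normexp. At least 2-fold higher were 4.89%, 3.48%, 3.09% and 2.64% in the same order, and at least 1.5-fold lower 8.92%, 14.1%, 16.7% and 6.56%. Of the 49 pathway genes, 6.12%, 12.2%, 12.2% and 2.04% were at least 2-fold lower. Spike-in scaling, which was chosen after seeing the data, lowers every difference by the same amount (-0.22) and took the median over all genes from 0.05 to -0.16. It gave medians of -0.25 for ligands, -0.27 for receptors and -0.19 for transducers, so each role kept its place relative to the other genes. Leaving out the filter on dim probes or keeping outlier spots changed neither count. Signal over background limits Bmp5 and Gdf15, which were dim on both arrays. The cause of the shifts was not tested.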
